A study of Homo sapiens with 24 samples.

Results

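Aminoacyl-tRNA synthetases join each amino acid to its tRNA before translation. The 36 synthetase genes described here were taken by symbol from a table of 34618 genes, with no threshold on a measured value. They comprise 20 genes for cytosolic enzymes, among them the dual-compartment genes GARS (glycine) and KARS (lysine), and 16 genes for enzymes of the mitochondrial matrix. EPRS encodes a single polypeptide that charges both the glutamate and the proline tRNA, and FARSA and FARSB encode the subunits of the phenylalanine enzyme. All 36 passed the filter on low counts, beside 14887 genes that passed in all.

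The libraries were from HepG2, a human hepatocellular carcinoma line, infected with lentivirus and kept under puromycin as stable lines with a hairpin against METTL14 (shMETTL14), a hairpin against SETD2 (shSETD2) or a non-specific hairpin (shCtrl). METTL14 is a subunit of the enzyme that writes N6-methyladenosine on mRNA, and SETD2 trimethylates lysine 36 of histone H3. Each line was sampled before actinomycin D, which blocks transcription, and after 1, 3 and 6 h of it at 5 ug/mL, with 2 libraries for each of the 12 groups of line and time. Whether a line is 1 clone or a mixed population, and which hairpin sequences were used, are not stated in the labels. METTL14 had 15.01 and 13.9 CPM (counts relative to the scaled library total) in shMETTL14 before the drug, against 29.3 and 30.04 CPM in shCtrl, a log2 change of -1.03 ± 0.10 (SE). SETD2 had 90.4 and 81.8 CPM in shSETD2 and 131 and 129 CPM in shCtrl, a log2 change of -0.59 ± 0.06. Before the drug, METTL14 was higher in shSETD2 than in shCtrl, at 38 and 38.6 CPM. SETD2 had 126.5 and 124.2 CPM in shMETTL14.

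Library totals ran from 18.3 to 31.4 M counts, so 3 counts were worth 0.0955 to 0.164 CPM. The 6 hepatocyte markers ALB, AFP, APOA1, APOB, TTR and HNF4A were all detected before the drug, with summed levels of 49880 to 49900 CPM in shMETTL14, 82620 to 83340 CPM in shSETD2 and 43630 to 44010 CPM in shCtrl. The fibroblast markers COL1A2 and DCN and the blood markers PTPRC, CD3E and HBB had 0 counts in the libraries taken before the drug. The remaining blood marker of the 4 was detected, at 0.219 to 0.423 CPM in shMETTL14, 0.453 to 0.610 CPM in shSETD2 and 0.316 to 0.379 CPM in shCtrl. The fibroblast marker COL1A1 was higher in shMETTL14 (0.69 ± 0.12) and in shSETD2 (1.03 ± 0.11) than in shCtrl, on the log2 scale, with the 4 fibroblast markers summing to 7.05 to 7.24 CPM in shMETTL14, 8.94 to 9.19 CPM in shSETD2 and 4.21 to 5.06 CPM in shCtrl. The endothelial marker VWF was higher in both knockdown lines and CDH5 in shMETTL14, with the 2 together at 1.09 to 1.37 CPM in shMETTL14, 0.881 to 0.907 CPM in shSETD2 and 0.277 to 0.310 CPM in shCtrl. Their part in the results was not tested. In bulk libraries such as these, fewer cells expressing a gene and less of its RNA per cell cannot be told apart.

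In animals, several cytosolic synthetases sit with the scaffold proteins AIMP1, AIMP2 and EEF1E1 in a multisynthetase complex, and the mitochondrial enzymes are made in the cytosol and imported. Genes for many cytosolic synthetases are textbook targets of ATF4, the transcription factor of the amino acid and integrated stress responses, which binds C/EBP-ATF response elements. The promoter windows of the members, 250 bases before to 50 after the RefSeq start on GRCh38.p14, were therefore searched on both strands for the core TGATGNAA of that element. Of the 20 cytosolic genes, 16 had a window in the table, and 7 of these held the core in at least 1 window (43.8%). So did 1 of 14 mitochondrial genes (7.1%). In the whole table, 1270 of 35116 windows held it (3.62%). The last share is per window and the members' shares are per gene. Some members had 2 windows, so the measures are not alike. The search itself fixed every letter of the core except N, so the cores could differ at that base alone. Their likeness at the other letters is therefore not a finding. The stretches with a core read 5′ to 3′ on the strand of the gene, with the core in capitals.
AARS: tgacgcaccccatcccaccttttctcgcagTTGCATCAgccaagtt
CARS: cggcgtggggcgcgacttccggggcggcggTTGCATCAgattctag
GARS: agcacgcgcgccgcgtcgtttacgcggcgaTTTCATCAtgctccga
IARS: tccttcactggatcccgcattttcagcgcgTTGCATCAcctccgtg
MARS: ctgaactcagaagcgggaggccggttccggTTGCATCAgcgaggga
NARS: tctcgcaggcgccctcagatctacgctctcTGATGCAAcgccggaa
TARS: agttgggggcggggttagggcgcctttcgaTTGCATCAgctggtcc
YARS2: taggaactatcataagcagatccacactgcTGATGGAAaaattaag
These stretches are chr16:70289678-70289723 (AARS, minus strand), chr11:3057410-3057455 (CARS, minus), chr7:30594815-30594860 (GARS, plus), chr9:92293695-92293740 (IARS, minus), chr12:57488034-57488079 (MARS, plus), chr18:57621807-57621852 (NARS, minus), chr5:33440937-33440982 (TARS, plus) and chr12:32756079-32756124 (YARS2, minus). Read on the strand that carries it, the core was TGATGCAA in 6 of the 7 cytosolic genes and TGATGAAA in GARS, while the mitochondrial YARS2 had TGATGGAA. In AARS the core began 187 bases before the start and in GARS 33 bases before it. In CARS, IARS, MARS and TARS it began within 13 bases of the start, and in NARS 15 bases after it. CARS, GARS and TARS each had 2 windows in the table, and 1 of the 2 held the core. A match is a description of letters and not a bound site.

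Before the drug, cytosolic synthetase transcripts were more abundant per length than the mitochondrial ones in each line. On the deposited RPKM scale (read counts scaled by exon length and library total), the class medians for cytosolic and mitochondrial genes were 29.1 and 8.42 in the first shMETTL14 library and 29.4 and 7.99 in the second. They were 32.0 and 6.95, then 32.0 and 7.22, in the shSETD2 libraries, and 41.9 and 7.44, then 42.9 and 7.58, in the shCtrl libraries. The ratio of the class medians was thus 3.45 and 3.68 in shMETTL14, 4.6 and 4.43 in shSETD2, and 5.64 and 5.66 in shCtrl, with no overlap between lines. All 20 cytosolic genes together took 0.295% and 0.291% of all counts in shMETTL14, 0.348% and 0.346% in shSETD2, and 0.476% and 0.481% in shCtrl. The 16 mitochondrial genes took 0.0750% and 0.0743%, 0.0746% and 0.0742%, and 0.0779% and 0.0780%.

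The classes overlapped in their ranges of level. GARS was the highest cytosolic gene by mean RPKM over the lines, with 53.1 and 52.1 RPKM in shMETTL14, 74.3 and 74.5 in shSETD2 and 104 and 106 in shCtrl. KARS followed it with 56.3 and 54.7 RPKM in shMETTL14, 71.9 and 70.6 in shSETD2 and 81.0 and 82.4 in shCtrl. The cysteine enzyme gene CARS was the lowest, with 4.83 and 4.74 RPKM in shMETTL14, 6.29 and 6.34 in shSETD2 and 8.27 and 8.60 in shCtrl. In the mitochondrial class the isoleucine gene IARS2 stood far above the rest, with 57.8 and 57.3 RPKM in shMETTL14, 56.2 and 55.5 in shSETD2 and 58.1 and 58.7 in shCtrl. Its rank among the 36 members was 1 in shMETTL14, 5 in shSETD2 and 8 in shCtrl. The serine gene SARS2 was the lowest, with 0.982 and 0.862 RPKM in shMETTL14, 0.864 and 0.802 in shSETD2 and 0.891 and 1.04 in shCtrl. Its count is uncertain, since the gene overlaps MRPS12 and FBXO17, which had more reads, and no label states whether the counting used strand. The same holds for EARS2 (which overlaps UBFD1), YARS2 (DNM1L) and HARS2 (HARS and ZMAT2). HARS overlaps HARS2 and WDR55, which had fewer reads than it. In shCtrl the cytosolic gene had the higher RPKM of the pair for all 16 amino acids that have a member in each class, with the smallest ratio for arginine (37.3 RPKM for RARS and 29.97 for RARS2) and the largest for serine (59.3 for SARS and 0.964 for SARS2).

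**Figure D1:**
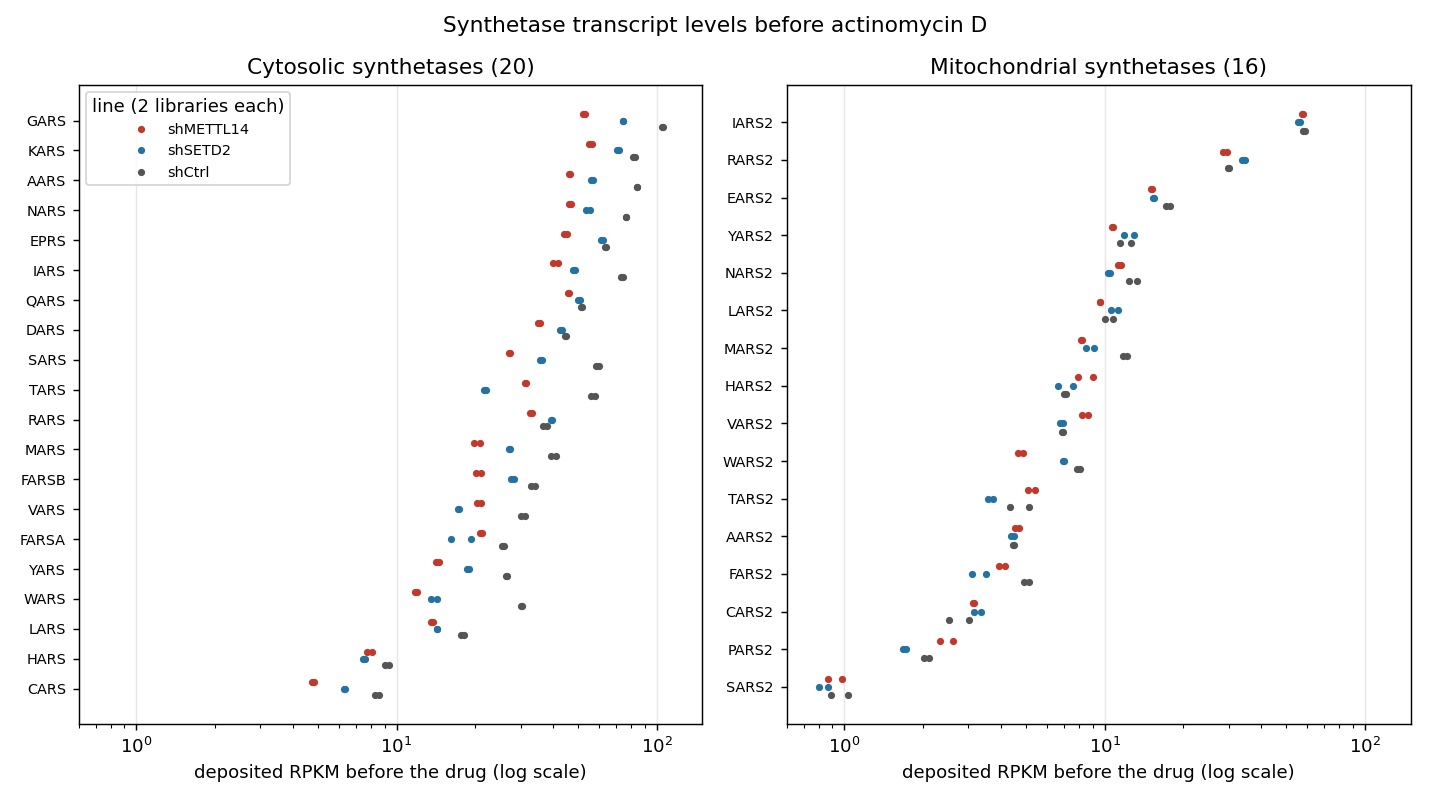
Deposited RPKM (log axis) of the 20 cytosolic and 16 mitochondrial synthetase genes before actinomycin D, with 1 point for each of the 2 libraries per line. The shMETTL14 points of most cytosolic genes lie left of the shCtrl points, while the points of most mitochondrial genes lie close together.

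The first comparison asked how synthetase transcripts differed in shMETTL14 cells from shCtrl cells before the drug. All 20 cytosolic genes were lower in shMETTL14 (adjusted p below 0.05, edgeR). Over all genes tested, 48.1% were called, with 25.1% lower and 23.1% higher. The cytosolic median log2 change was -0.76, which left 59.0% of the shCtrl level at the median, beside -0.01 over all genes tested. Of the 16 mitochondrial genes, 7 were lower, 1 was higher and 8 did not pass, with a median log2 change of -0.11.

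The tryptophan enzyme gene WARS (GRCh37 chr14:100800125-100843142, minus strand) had the largest fall. It had 62.8 and 64.0 CPM in shMETTL14, against 169 and 166 CPM in shCtrl, a log2 change of -1.40 ± 0.05 (SE, adjusted p = 6.96e-16). GARS (chr7:30634297-30673649, plus) had 185 and 182 CPM in shMETTL14 and 379 and 383 CPM in shCtrl, a log2 change of -1.05 ± 0.04 (adjusted p = 6.69e-15). The isoleucine gene IARS (chr9:94972489-95056038, minus) had 259 and 249 CPM in shMETTL14, against 472 and 477 CPM in shCtrl, a log2 change of -0.90 ± 0.04 (adjusted p = 2.23e-14). In these genes the gap between the lines was many times the gap between libraries of a line. The serine gene SARS (-1.18), the methionine gene MARS (-1.04) and the tyrosine gene YARS (-0.93) fell by amounts in the same range, as did AARS and TARS (-0.92 each). The smallest falls were in the glutamine gene QARS (-0.23 ± 0.06), RARS (-0.24 ± 0.07) and HARS (-0.27 ± 0.05). KARS had 181 and 175 CPM in shMETTL14 and 270 and 274 CPM in shCtrl, a log2 change of -0.61 ± 0.04 (adjusted p = 2.29e-11). CARS fell to 40.7 and 39.9 CPM, against 72.6 and 75.2 CPM in shCtrl.

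Within the cytosolic class, the 8 genes whose products sit in the multisynthetase complex (DARS, EPRS, IARS, KARS, LARS, MARS, QARS and RARS) had a median log2 change of -0.50. The other 12 had a median of -0.90. Their ranges overlapped, from -1.04 to -0.23 inside the complex and from -1.40 to -0.27 outside it. Of the scaffolds, AIMP1 (-0.44 ± 0.07) and AIMP2 (-0.78 ± 0.07) were lower in shMETTL14, and EEF1E1 had -0.37 ± 0.17 and did not pass.

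Among mitochondrial genes, the largest falls were in the tryptophan gene WARS2 and the methionine gene MARS2, the partners of WARS and MARS. WARS2 had 15.04 and 15.7 CPM in shMETTL14 and 26.5 and 27.0 CPM in shCtrl, a log2 change of -0.80 ± 0.11 (adjusted p = 3.68e-06). MARS2 had 20.9 and 20.6 CPM in shMETTL14, against 32.2 and 30.9 CPM in shCtrl, a log2 change of -0.61 ± 0.08 (adjusted p = 1.36e-06). The glutamate gene EARS2 had 72.4 and 73.0 CPM in shMETTL14 and 86.7 and 88.9 CPM in shCtrl, a log2 change of -0.27 ± 0.05 (adjusted p = 0.000185). FARS2 (-0.37), YARS2 (-0.23), NARS2 (-0.23) and LARS2 (-0.17) were also lower. Of 11 alternatives, the YARS2 call held in 7 and the LARS2 call in 8. The valine gene VARS2 was the 1 member called higher, with 61.4 and 58.3 CPM in shMETTL14 against 51.0 and 50.3 CPM in shCtrl, a log2 change of 0.24 ± 0.07 (adjusted p = 0.0088). That call was lost whichever of the 4 libraries of the comparison was left out, with log2 changes of 0.10 to 0.18. IARS2 had 202 and 200 CPM in shMETTL14 and 211 and 213 CPM in shCtrl, and SARS2 had 3.06 and 2.68 CPM in shMETTL14 and 2.88 and 3.35 CPM in shCtrl; neither passed. IARS2 was called lower in 6 of 11 alternatives, among them RLE size factors (-0.13), DESeq2 (-0.13) and each fit without 1 of the 4 libraries (-0.18 to -0.17). Genes were paired by amino acid, with FARSA for phenylalanine and EPRS for both glutamate and proline. The cytosolic change lay below the mitochondrial change in 15 of 16 pairs. The exception was phenylalanine (-0.33 for FARSA and -0.37 for FARS2), where the other subunit gene, FARSB, had -0.75.

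The second comparison set shSETD2 cells against the same shCtrl libraries before the drug, so the comparisons of both knockdown lines share their controls. In shSETD2, 13 of 20 cytosolic genes were lower, 1 was higher and 6 did not pass, where 40.6% of all genes tested were called (18.9% lower and 21.6% higher). The cytosolic median log2 change was -0.33, beside 0.02 over all genes. Of the 16 mitochondrial genes, 2 were lower, 3 were higher and 11 did not pass, with a median of 0.03. Some members that did not pass were called lower in most of 11 alternatives: HARS in 8, NARS2 in 7 and TARS2 in 6. Members with a positive change that did not pass were called in at most 2 of the 11 (EPRS and QARS). The 4 higher calls over both classes became 1 without the first shCtrl library and 0 without the second. Scaling by library size alone moved the median of all genes by -0.155 on the log2 scale in this comparison. The split over the 36 members was then 21 lower and 2 higher, where the main scaling gave 15 lower and 4 higher, and it was 2010 higher and 5103 lower over all genes, where the main scaling gave 3221 and 2820.

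The threonine gene TARS (chr5:33440802-33469644, plus) fell the furthest in shSETD2. It had 123 and 120 CPM in shSETD2 and 279 and 290 CPM in shCtrl, a log2 change of -1.23 ± 0.06 (adjusted p = 5.63e-14). WARS had 88.4 and 83.7 CPM in shSETD2, against 169 and 166 CPM in shCtrl, a log2 change of -0.96 ± 0.05 (adjusted p = 2.35e-13). IARS had 345 and 349 CPM in shSETD2 and 472 and 477 CPM in shCtrl, a log2 change of -0.45 ± 0.04 (adjusted p = 2.06e-09). The libraries of the lines did not overlap for these genes. VARS (-0.67) and SARS (-0.57) also fell. GARS had 300 CPM in both shSETD2 libraries, a log2 change of -0.34 ± 0.04, and CARS had 61.5 and 61.7 CPM, a log2 change of -0.26 ± 0.06. The arginine gene RARS went the other way, with 131 and 132 CPM in shSETD2 and 114 and 109 CPM in shCtrl, a log2 change of 0.24 ± 0.07 (adjusted p = 0.00761). Its call was lost under scaling by library size alone, with a log2 change of 0.08, and without either shCtrl library. KARS had 267 and 261 CPM in shSETD2 and 270 and 274 CPM in shCtrl and did not pass. It was called lower in 5 of 11 alternatives. Among them were library size alone and limma (-0.20 each), DESeq2 (-0.10) and the 0 h libraries alone (-0.07).

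Of the 8 complex members, 3 were lower, 1 was higher and 4 did not pass in shSETD2, with a median log2 change of 0.03. Outside the complex, 10 of 12 were lower and 2 did not pass, with a median of -0.36. AIMP2 was lower (-0.40 ± 0.07), while AIMP1 (0.12 ± 0.07) and EEF1E1 (0.06 ± 0.17) did not pass. In the mitochondrial class, the cysteine gene CARS2 had 34.1 and 32.0 CPM in shSETD2 and 27.7 and 23 CPM in shCtrl, a log2 change of 0.39 ± 0.08 (adjusted p = 0.000268). Without the second shCtrl library its log2 change was 0.17 and did not pass. RARS2 had 83.4 and 85.5 CPM in shSETD2, against 66.8 and 66.4 CPM in shCtrl, a log2 change of 0.34 ± 0.08 (adjusted p = 0.000923), and it missed the threshold without either shCtrl library, at 0.25 each. LARS2 was higher as well (0.22 ± 0.06), a call that held in 6 of 11 alternatives, with log2 changes from 0.07 to 0.26. IARS2 had 228 and 224 CPM in shSETD2 and 211 and 213 CPM in shCtrl, and SARS2 had 3.12 and 2.88 CPM in shSETD2 and 2.88 and 3.35 CPM in shCtrl; neither passed. The phenylalanine gene FARS2 had 7.999 and 7.05 CPM in shSETD2 and 10.6 and 10.1 CPM in shCtrl, a log2 change of -0.45 ± 0.12 (adjusted p = 0.0032). MARS2 had 26.8 and 24.9 CPM in shSETD2, against 32.2 and 30.9 CPM in shCtrl, a log2 change of -0.29 ± 0.08 (adjusted p = 0.00518). FARS2 and MARS2 missed the threshold without the second shSETD2 library, at -0.37 and -0.24. The cytosolic change lay below the mitochondrial change in 13 of 16 amino acid pairs. The exceptions were phenylalanine (-0.37 for FARSA), glutamate and proline, and the last pairs share the same cytosolic gene, EPRS (0.11).

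**Figure D2:**
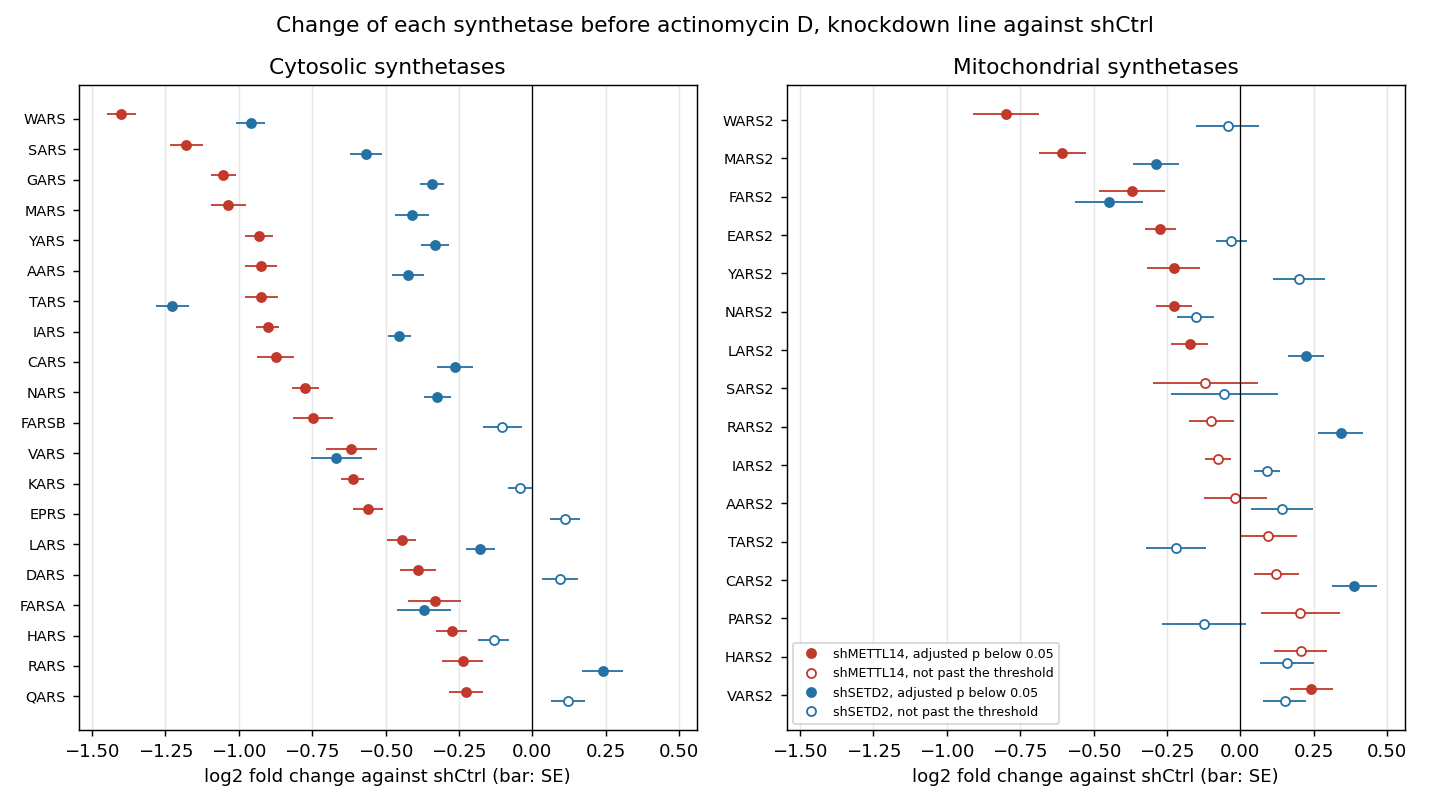
Log2 fold change of each synthetase before actinomycin D in shMETTL14 and in shSETD2, each against shCtrl, with SE bars, filled where the adjusted p was below 0.05 and open otherwise. All 20 cytosolic genes lie left of 0 in shMETTL14, from -1.40 (WARS) to -0.23 (QARS), and TARS is the lowest in shSETD2 at -1.23.

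The knockdown lines were also compared with each other before the drug. In shSETD2, 17 cytosolic and 8 mitochondrial genes were higher than in shMETTL14, and 1 of each class was lower, where 52.2% of all genes were called (29.2% higher and 23% lower). GARS was higher by 0.71 ± 0.04 on the log2 scale (adjusted p = 3.72e-12), EPRS by 0.67 ± 0.05 and KARS by 0.57 ± 0.04. EPRS had 330 and 322 CPM in shSETD2 and 207 and 202 CPM in shMETTL14. WARS2 was higher by 0.76 ± 0.11, with 26.2 and 25.8 CPM in shSETD2 and 15.04 and 15.7 CPM in shMETTL14, and RARS2 (0.44 ± 0.08) was higher too. LARS2 had 55.6 and 58.8 CPM in shSETD2 and 43.4 and 43.5 CPM in shMETTL14, a log2 change of 0.40 ± 0.06. IARS2 (0.17 ± 0.04) and CARS (0.61 ± 0.06) were higher, and SARS2 (0.06 ± 0.18) did not pass. TARS was the cytosolic exception, with 123 and 120 CPM in shSETD2 and 149 and 151 CPM in shMETTL14, a log2 change of -0.30 ± 0.06 (adjusted p = 0.000106). TARS2 was the mitochondrial exception, with 14.03 and 14.5 CPM in shSETD2 and 18.3 and 17.2 CPM in shMETTL14 (-0.31 ± 0.10, adjusted p = 0.0111). The TARS2 call was lost without the first shSETD2 library (-0.29) or the first shMETTL14 library (-0.26). Scaling by library size alone moved the median of all genes by -0.211 here and gave 18 members higher and 8 lower, where the main scaling gave 25 and 2; HARS and IARS2 changed sign.

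Set beside the promoter windows, the 7 cytosolic genes that held the core had a median log2 change of -0.92 in shMETTL14, from -1.05 (GARS) to -0.77 (NARS). The 9 cytosolic genes with a window and no match (EPRS, FARSA, FARSB, HARS, KARS, QARS, RARS, SARS and WARS) had a median of -0.56, from -1.40 (WARS) to -0.23 (QARS). The ranges overlapped, and the largest falls, of WARS and SARS, were among the genes without a match. In shSETD2 the medians were -0.41 and -0.10, and all 7 holders were lower, from -1.23 (TARS) to -0.26 (CARS). DARS, LARS, VARS, YARS, AARS2 and VARS2 had no window in the table. No test was made over these genes, since members are not replicates.

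**Figure D3:**
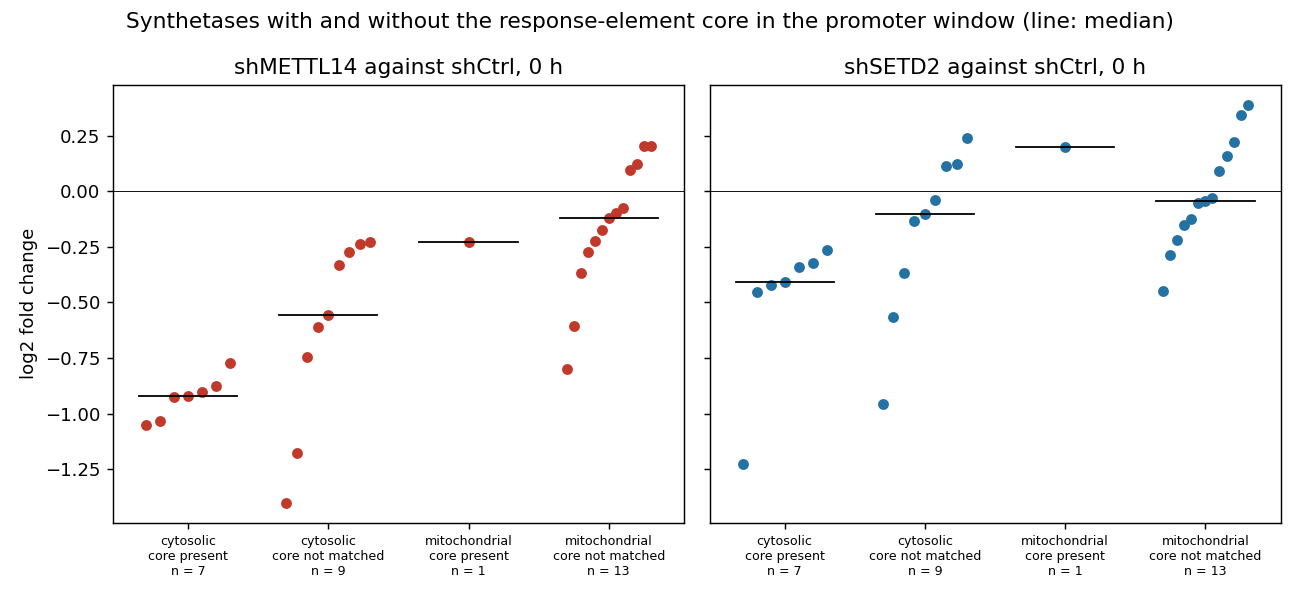
Log2 fold change before actinomycin D in shMETTL14 and in shSETD2, each against shCtrl, of synthetases whose promoter window held the response-element core or gave no match, split by class, with the median as a line. Cytosolic genes with the core span -1.05 to -0.77 in shMETTL14, inside the wider range of those without it.

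ATF4 and known ATF4 programme genes were read beside the synthetases. In shMETTL14, 10 of the 10 tested (ATF4, ASNS, PSAT1, PHGDH, TRIB3, DDIT3, SESN2, SLC7A11, SLC3A2 and MTHFD2) were lower, with a median log2 change of -1.40, and CHAC1 was too low to test. In shSETD2, 8 were lower and PHGDH was higher (0.26 ± 0.07), with a median of -0.41. Over all genes tested, 25.1% were lower and 23.1% higher in shMETTL14, and 18.9% and 21.6% in shSETD2. ATF4 itself had 175 and 166 CPM in shMETTL14, 308 and 313 CPM in shSETD2 and 296 and 307 CPM in shCtrl, a log2 change of -0.83 ± 0.06 in shMETTL14 and 0.04 ± 0.06, which did not pass, in shSETD2. The asparagine synthetase gene ASNS had 52.6 and 50.1 CPM in shMETTL14, 125 and 127 CPM in shSETD2 and 231 and 235 CPM in shCtrl. Of 13 other genes that handle aminoacyl-tRNA, 7 were lower and 2 higher (GATC and SEPSECS) in shMETTL14. In shSETD2, 4 of the 13 were lower and 4 higher, to be read beside the same shares of all genes. Among them, TARSL2 had log2 changes of 0.03 ± 0.09 in shMETTL14, which did not pass, and 0.46 ± 0.09 in shSETD2. The elongation factor genes EEF1A1 (-0.36 ± 0.04) and TUFM (-0.52 ± 0.07, mitochondrial) were lower in shMETTL14. In shSETD2, EEF1A1 was higher (0.13 ± 0.04) and TUFM lower (-0.28 ± 0.07).

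Under actinomycin D, a slope of log2 CPM per hour over 0, 1, 3 and 6 h was fitted in each line; it is relative to the rest of the RNA, so a positive slope means a transcript that gained share as others were lost. Most cytosolic synthetase transcripts gained share in each line. The counts rising and falling were 16 and 3 in shMETTL14, 15 and 3 in shSETD2, and 17 and 3 in shCtrl. For mitochondrial genes they were 8 and 5, 7 and 5, and 7 and 5. Over all genes tested, 73.1% were called in shMETTL14 (38.2% rising and 34.8% falling), 70.4% in shSETD2 (34.2% and 36.2%) and 71.1% in shCtrl (37.8% and 33.2%). The cytosolic and mitochondrial median slopes were 0.10 and 0.03 per hour in shMETTL14, 0.09 and 0.01 in shSETD2, and 0.11 and 0.02 in shCtrl. The median cytosolic gene had 156%, 144% and 155% of its own 0 h share at 6 h in shMETTL14, shSETD2 and shCtrl. The median mitochondrial gene had 118%, 105% and 112%.

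These counts depend on the scaling. Scaling by library size alone moved the median slope of all genes by -0.071 (shMETTL14), -0.049 (shSETD2) and -0.059 (shCtrl) per hour. The members rising and falling were then 14 and 14 in shMETTL14, 16 and 12 in shSETD2, and 16 and 12 in shCtrl, where the main scaling gave 24 and 8, 22 and 8, and 24 and 8. Called slopes that changed sign were those of CARS, GARS, SARS, LARS2 and TARS2 in shMETTL14, CARS in shSETD2, and FARSB and GARS in shCtrl. The steep slopes named next kept their sign.

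The fastest decliners in each line, MARS2 and PARS2, were mitochondrial. MARS2, the methionine enzyme gene, fell to 9.26%, 8.71% and 10.4% of its 0 h share at 6 h in shMETTL14, shSETD2 and shCtrl, with slopes of -0.60 ± 0.02, -0.61 ± 0.02 and -0.56 ± 0.02 per hour. In shMETTL14 its levels were 20.9 and 20.6, 17.8 and 15.8, 5.08 and 5.34, and 1.68 and 2.16 CPM at 0, 1, 3 and 6 h. In shSETD2 they were 26.8 and 24.9, 19.1 and 19.2, 5.00 and 4.39, and 2.41 and 2.09 CPM, and in shCtrl 32.2 and 30.9, 22.5 and 21.6, 6.02 and 6.75, and 3.63 and 2.96 CPM. On the log scale, the loss per hour was steepest between 1 and 3 h in each line. The proline gene PARS2 fell further, with slopes of -0.68 ± 0.04, -0.69 ± 0.05 and -0.79 ± 0.05 per hour. It had 5.15 and 4.59 CPM in shMETTL14, 3.93 and 3.83 in shSETD2 and 4.15 and 4.31 in shCtrl before the drug, and 0.356 and 0.292, 0.229 and 0.261, and 0.207 and 0.178 CPM at 6 h. Those 6 h values rest on 3 to 7 counts per library. The tyrosine gene YARS2 fell to 34.6%, 27.5% and 29.9% of its 0 h share, with slopes of -0.26 ± 0.02, -0.31 ± 0.02 and -0.30 ± 0.02. FARS2 fell more slowly, with slopes of -0.13 ± 0.02, -0.11 ± 0.02 and -0.14 ± 0.02, though over 0, 1 and 3 h alone its slope in shMETTL14 was 0.02 and did not pass. For none of these 4 genes did the slope of a knockdown line differ from that of shCtrl by a called amount.

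The cytosolic genes that fell were RARS, TARS and FARSA, in each line. QARS had the steepest rise in shMETTL14, to 212% of its 0 h share at 6 h, with 190% in shSETD2 and 185% in shCtrl. KARS reached 173% in shMETTL14, 169% in shSETD2 and 172% in shCtrl. FARSA fell to 61.2%, 73.1% and 67.3% in shMETTL14, shSETD2 and shCtrl. RARS lost share late: at 3 h it stood at 89.3% in shMETTL14, 92.0% in shSETD2 and 109% in shCtrl, and at 6 h at 47.4%, 48.2% and 62.7%. Over 0, 1 and 3 h alone its slope was 0.03 per hour in shCtrl and -0.05 in shSETD2, and neither passed. FARSA did not pass in any line over that span. TARS fell throughout in shSETD2 and after the first hour in the other lines.

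**Figure D4:**
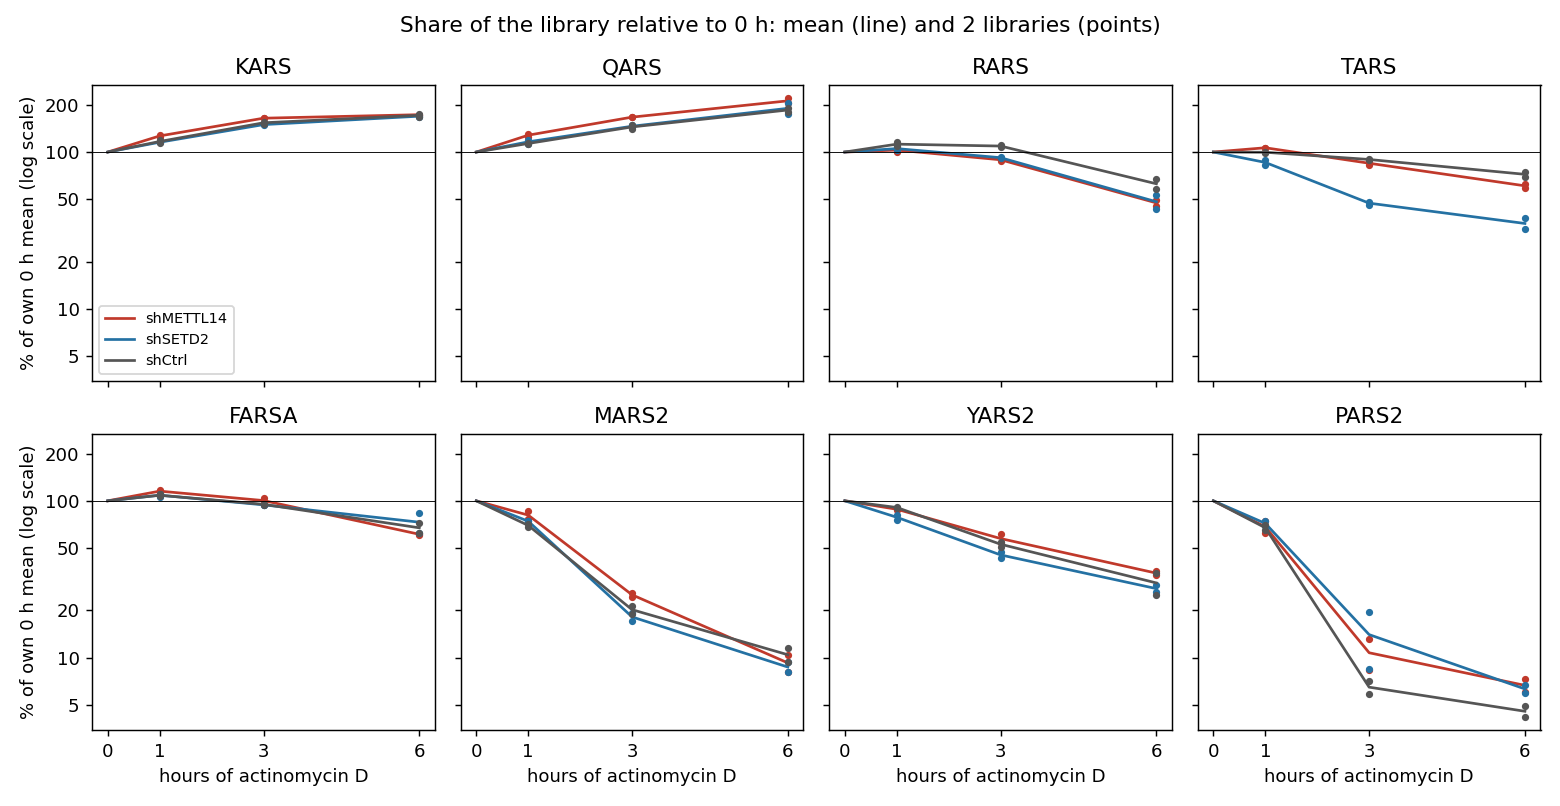
Share of the library at each time as a percentage of the line's own 0 h mean (log axis), with the mean as a line and the 2 libraries as points, for 5 cytosolic (KARS, QARS, RARS, TARS, FARSA) and 3 mitochondrial (MARS2, YARS2, PARS2) genes. TARS is the panel where shSETD2 separates from shMETTL14 and shCtrl, reaching 35.03% at 6 h against 60.9% and 72.1%.

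The slopes of the knockdown lines were then compared with that of shCtrl. In shSETD2, 5 members fell faster or rose less than in shCtrl and 0 did the opposite (7.94% of all genes called, 6.45% in that direction and 1.49% in the other), all 5 of them cytosolic. Leaving out 1 library moved the 5 to between 1 and 11, with 11 and 2 in the opposite direction without the second shSETD2 library at 6 h. The median difference was -0.01 per hour over the members and -0.01 over all genes. TARS had by far the largest difference, -0.18 ± 0.01 per hour (adjusted p = 9.76e-09), with slopes of -0.26 in shSETD2 and -0.08 in shCtrl. In shSETD2 it had 123 and 120, 100 and 109, 56.0 and 58.7, and 39.3 and 45.8 CPM at 0, 1, 3 and 6 h. In shCtrl it had 279 and 290, 286 and 281, 254 and 256, and 198 and 212 CPM. The shSETD2 libraries were below the shCtrl libraries at every time, and their share of the shCtrl level was lowest at 6 h. The TARS difference was called under each of the 24 alternatives run, from -0.31 to -0.15 per hour.

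The other 4 calls in shSETD2 were smaller and depended on the settings. They were RARS (-0.06 ± 0.02, adjusted p = 0.0181), GARS (-0.03 ± 0.01, adjusted p = 0.0229), LARS (-0.04 ± 0.01, adjusted p = 0.0435) and NARS (-0.03 ± 0.01, adjusted p = 0.0475). RARS had 131 and 132, 135 and 141, 121 and 121, and 56.9 and 69.7 CPM in shSETD2, and 114 and 109, 128 and 122, 120 and 123, and 65.0 and 74.7 CPM in shCtrl. GARS had 300 and 300, 305 and 313, 302 and 302, and 296 and 312 CPM in shSETD2, and 379 and 383, 431 and 424, 454 and 459, and 437 and 464 CPM in shCtrl, so it was nearly level in shSETD2 and gained share in shCtrl. Under RLE size factors, library size alone, limma or DESeq2, TARS was the 1 member called. RARS and GARS also lost the call without either shCtrl 0 h library, at -0.03 for RARS and at -0.001 and -0.004 for GARS. Of the 24 alternatives, RARS was called in 15, GARS in 13, LARS in 3 and NARS in 2.

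In shMETTL14, 2 members differed from shCtrl in slope, both falling faster, where 5.21% of all genes were called (3.35% in that direction and 1.85% in the other). RARS had a difference of -0.07 ± 0.02 per hour (adjusted p = 0.0183), with 95.3 and 93.5, 94.5 and 99.9, 83.4 and 85.2, and 42.9 and 46.6 CPM at 0, 1, 3 and 6 h in shMETTL14. TARS had a difference of -0.05 ± 0.01 (adjusted p = 0.0214), with 149 and 151, 159 and 160, 124 and 130, and 88.5 and 94.2 CPM. Of 24 alternatives, RARS was called in 17 and TARS in 16. Both calls were lost over 0, 1 and 3 h, and without the second shCtrl or the first shMETTL14 library at 6 h. TARS also lost its call for the change from 0 to 6 h. Both were lost as well without any 1 of the 4 libraries at 0 h, at -0.05 to -0.04 for RARS and -0.03 to -0.02 for TARS. Without 1 of those libraries, 0 members fell faster and 3 to 4 did the opposite. IARS2, not called here (0.02 ± 0.01), was called with a difference of 0.04 without any 1 of those libraries. KARS, CARS and SARS2 were not called in either comparison of slopes. No mitochondrial member was called in either, by edgeR's quasi-likelihood test.

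The authors' deposited table of half-lives lists 16 of the 36 members, 6 cytosolic and 10 mitochondrial. The 20 members not listed there all had positive slopes in shCtrl, from 0.05 to 0.17 per hour, and the listed ones ran from -0.79 to 0.07. In the authors' deposited table PARS2 had 1.21 h in shMETTL14, 1.21 h in shSETD2 and 1.15 h in shCtrl, and MARS2 had 1.39, 1.35 and 1.56 h. YARS2 had 2.54, 2.26 and 2.60 h in the authors' deposited table. TARS had 3.86 h in shMETTL14, 2.52 h in shSETD2 and 6.64 h in shCtrl there, and RARS had 3.19, 3.14 and 5.35 h. GARS was near level in shSETD2 and gained share in shMETTL14 and shCtrl under the main scaling. For it the authors' deposited table gives 11.8, 7.61 and 29.4 h. The class medians in the authors' deposited table were 7.64 h in shMETTL14, 6.197 h in shSETD2 and 18.04 h in shCtrl for the 6 cytosolic genes, and 6.17, 6.08 and 10.1 h for the 10 mitochondrial genes. Without GARS the cytosolic medians of the authors' deposited table were 3.86, 4.79 and 6.64 h, below the mitochondrial medians in each line. Leaving out CARS (164.6 h in shCtrl in the authors' deposited table) or SARS (177.4 h) in place of GARS gives the same medians. The order of the classes therefore rests on few listed genes and turns when any of these long values is dropped. Half-lives in that table were shorter than in shCtrl for 15 of the 16 members in shMETTL14 and in shSETD2, PARS2 being the exception in both. Over all 7772 genes of the authors' deposited table, 88.8% were shorter in shMETTL14 and 88.2% in shSETD2, so the members' share lies near that of all genes.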

How the data were processed

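RNA was sequenced in 24 libraries, 12 groups of 2, grouped by sample title. The authors deposited gene counts and RPKM in 1 table; per the submitters' processing notes cutadapt, TopHat, HTSeq 0.6.1p1 and GRCh37 were used, with their order, settings and strandedness unstated. The deposited RPKM equalled counts scaled by exon length and table total for 100% of values above 0 (tolerance 1e-06). The authors also deposited half-lives (in hours, with no error given), obtained per the series' design text from treated over untreated expression. Spike-in RNA was added per the labels, but the table holds 0 ERCC entries, so every value is relative to the rest of the library.

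The deposited counts went into R 4.3.3 and edgeR 4.0.16 (robust quasi-likelihood, two-sided, TMM, filterByExpr, Benjamini-Hochberg over 14887 genes at 0.05), with all 24 libraries in 1 model with 12 residual degrees of freedom. The biological coefficient of variation was 5.04%; 9318 of the listed genes had no count. The series calls the replicates biological without saying whether cultures were separate; p-values therefore reflect the spread among these libraries alone, which may be technical. Adjusted p-values in the text are from this test. Slopes were fitted by least squares to the 4 log2 group means against time. The scripts were tested on simulated data. Alternatives were RLE size factors, library size alone, no filter, limma 3.58.1 on log2(RPKM + 0.1), DESeq2 1.42.0, a replicate block, other time spans, the 0 h libraries alone and leaving out each library.

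Members and lists were chosen with earlier results of these data known. Members named with all values are, per comparison and class, up to 3 with the smallest p past the threshold, those called against most of their class, the highest and lowest by RPKM, GARS and KARS. LARS, NARS, QARS and FARSA, the genes that declined fastest, and ATF4 and ASNS were given library values or shares after their values were seen. Promoter sequences are from RefSeq (GRCh38.p14), with 30 of 36 members matched, and gene positions are GRCh37. The endothelial marker PECAM1 and protein sequences were not used here, and 1 gene of the lists is not reported here by name.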

Additional observations from a re-analysis of the deposited data

Results flagged for a closer look

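The members listed here had a slope under actinomycin D that differed between a knockdown line and shCtrl by edgeR's test of the difference itself. In shMETTL14 they were RARS (-0.065 per hour) and TARS (-0.049 per hour). In shSETD2 they were TARS (-0.18), RARS (-0.063), GARS (-0.035), LARS (-0.035) and NARS (-0.033 per hour). TARS in shSETD2 had both libraries below both shCtrl libraries at all 4 times. LARS had 113 and 113 CPM in shSETD2 at 0 h and 185 and 203 CPM at 6 h, against 126 and 129 CPM in shCtrl at 0 h and 258 and 266 CPM at 6 h. NARS had 222 and 212 CPM in shSETD2 at 0 h and 275 and 301 CPM at 6 h, against 273 and 270 CPM in shCtrl at 0 h and 416 and 420 CPM at 6 h. Of 24 alternatives, the LARS call held in 3 and the NARS call in 2. Whether the slopes of the knockdown lines differ from each other was not tested.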

How the results depend on the processing

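The main counts of members lower or falling and higher or rising were 27 and 1 (shMETTL14 at 0 h), 15 and 4 (shSETD2 at 0 h), 2 and 25 (shSETD2 against shMETTL14), 8 and 24, 8 and 22, and 8 and 24 (slopes in shMETTL14, shSETD2 and shCtrl), and 2 and 0, and 5 and 0 (slope differences of shMETTL14 and shSETD2). Leaving out 1 library gave, in the same order, 27 to 28 and 0 to 0, 12 to 18 and 0 to 4, 1 to 2 and 23 to 25, 7 to 8 and 23 to 24, 7 to 8 and 22 to 23, 7 to 8 and 23 to 24, 0 to 3 and 0 to 4, and 1 to 11 and 0 to 2. The count of 11 came without the second shSETD2 library at 6 h. The median slope of cytosolic minus mitochondrial genes ran from 0.0607 to 0.0751 in shMETTL14, 0.0603 to 0.0966 in shSETD2 and 0.0721 to 0.0902 in shCtrl. The cytosolic count lower in shMETTL14 at 0 h was 19 to 20 of 20 under the 7 other alternatives and 20 without any 1 library.

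With library size alone, 2 members were higher in shMETTL14 and 2 in shSETD2, 8 were lower in shSETD2 than in shMETTL14, the slopes in shMETTL14 gave 14 falling and 14 rising, and 1 slope difference remained in shSETD2. Limma gave 2 higher in shMETTL14, 1 higher in shSETD2, 7 lower in shSETD2 than in shMETTL14, 13 falling and 14 rising in shMETTL14, 13 falling in shSETD2, and slope differences for 4 members in shMETTL14 and 1 in shSETD2. The 0 h libraries alone gave 2 higher in shMETTL14, 9 higher in shSETD2 and 5 lower in shSETD2 than in shMETTL14. Slopes over 0, 1 and 3 h gave 5 falling in shMETTL14, 5 falling in shCtrl, and slope differences for 0 members in shMETTL14 and 2 in shSETD2. The change from 0 to 6 h gave 1 slope difference in shMETTL14. In shSETD2, RLE size factors gave 1 slope difference, DESeq2 gave 1 and no filter gave 2. The cause of these shifts was not tested.

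Sign changes are listed here only where the main fit or the alternative was called. Beside those under library size alone given with the comparisons, some were found among the members named with all values. IARS2 turned between the knockdown lines (-0.0437 by library size alone and -0.0436 by limma). FARS2 turned in shMETTL14 (0.0206 over 0, 1 and 3 h) and RARS in shCtrl (0.0334 over 0, 1 and 3 h). GARS turned too, with slopes by library size alone and by limma of -0.0278 and -0.0277 in shMETTL14, -0.0490 and -0.0489 in shSETD2, and -0.0243 and -0.0243 in shCtrl. Of 1393 values for 91 results on single genes, 93.8% kept their side of the threshold and, where called, their direction. A change of sign where neither the main fit nor the alternative was called was not counted. The ratio of class levels was 2.59, 3.04 and 3.92 by class means and 2.96, 3.89 and 5.16 without GARS and KARS in shMETTL14, shSETD2 and shCtrl. Without GARS (KARS is not listed) the cytosolic median of the authors' deposited table was 3.86, 4.79 and 6.64 h.

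Replicate numbers were not taken to pair the libraries: deviations of same-numbered libraries correlated from -0.0842 to 0.202 (median 0.0179), and 9 of 66 pairs of groups were above 0.1, among them all 3 pairs of 6 h groups (0.109 to 0.166). With the replicate block, 2 members were higher in shMETTL14 at 0 h and 27 lower, and no other count moved by over 1.5 times. Depth limits PARS2 at 3 and 6 h, with 3 to 17 counts per library.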
